A study of Homo sapiens with 12 samples.

Results

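The ABC transporter genes of HepG2 cells were followed across 3 conditions: control, 2.5 µM acriflavine and 5 µM acriflavine. Members were the protein-coding genes of the deposited count table whose Ensembl identifier maps to a symbol made of ABC, a subfamily letter from A to G and a number. The rule found 45 genes among the 63152 genes of the table. RNA of 12 libraries was sequenced, 4 per condition, after 24 h with acriflavine, an acridine dye known to inhibit HIF-driven transcription and to bind DNA. The series as a whole concerns epithelial-to-mesenchymal transition. The cell line field of every library reads HepG2, a human hepatoblastoma line, and the description of the samples names HepG2S1, a derivative of HepG2 selected for growth in sorafenib. All 12 libraries thus come from 1 selected line. The control libraries are labelled as having no treatment, while the protocol speaks of the vehicle DMSO. The series text calls the 4 libraries of a condition biological replicates without saying how the cultures were separated, and p-values measure the spread between these libraries.

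ABC proteins share an ATP-binding cassette. Most members of subfamilies A, B, C, D and G sit in a membrane and use ATP to move lipids, sterols, bile salts, peptides, haem precursors, conjugates or drugs across it. In hepatocytes, exporters on the canalicular face carry bile salts, phospholipid and conjugated bilirubin into bile, and exporters on the basolateral face return conjugates to blood. Subfamilies E and F have no membrane part and act on ribosomes and translation. Several members of subfamilies B, C and G are known for drug efflux from tumour cells.

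The library totals ran from 10733567 to 15116842 counts, and correlations of log2 CPM were 0.992 to 0.994 within conditions and 0.901 to 0.972 between them. Levels are given as CPM (read counts scaled to a common library size with TMM factors), and fold changes as log2 values ± SE from edgeR. "Rose" and "fell" stand for an edgeR p under 0.05 after adjustment over all 16839 genes tested. The hepatocyte markers went against the cell line label. All 10 listed hepatocyte markers averaged under 1 CPM in the controls, and 4 of them, among which ALB and AFP, had 0 counts there. Summed over the list, controls had 0.879 to 1.69 CPM, 2.5 µM libraries 1.06 to 2.22 CPM and 5 µM libraries 9.19 to 12.2 CPM. KRT7, a biliary keratin, averaged 3610 ± 228 CPM in the controls (SD, n = 4), and DCN, a fibroblast proteoglycan, 563 ± 46.8 CPM. Among the other cholangiocyte markers, KRT19 averaged 203 CPM there, but EPCAM had 3.57 CPM, SOX9 1.73 CPM and CFTR 0.0395 CPM. Of the 7 fibroblast markers, 3 (COL1A2, COL3A1 and THY1) had 0 counts in the controls. The cells are therefore called by their label here, without a claim to hepatocyte identity. The part of marker levels in the results was not tested. In bulk RNA, fewer cells of a type and less RNA per cell cannot be told apart.

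Starts of 4 changed members are printed first, 1 from each of subfamilies F, E, B and C. They were chosen after their values were seen, among members with 1 promoter window. Each window runs from 250 bases before to 50 bases after the annotated start in the RefSeq table of build GRCh38.p14, 5′ to 3′ on the strand of the gene. Capitals mark matches, on either strand, to a CCAAT box (CCAAT), an E-box (CACGTG), a GC box (GGGCGG), a cAMP response element (TGACGTCA) or a TATA motif (TATAAA).
 ABCF1, chr6:30571192-30571491, plus strand: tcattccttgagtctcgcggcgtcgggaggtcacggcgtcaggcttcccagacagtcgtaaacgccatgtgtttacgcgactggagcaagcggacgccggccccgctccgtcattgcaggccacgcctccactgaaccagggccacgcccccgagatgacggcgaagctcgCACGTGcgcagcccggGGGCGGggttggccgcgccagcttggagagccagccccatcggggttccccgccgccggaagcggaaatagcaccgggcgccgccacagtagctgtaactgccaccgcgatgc 
ABCE1, chr4:145098061-145098360, plus strand: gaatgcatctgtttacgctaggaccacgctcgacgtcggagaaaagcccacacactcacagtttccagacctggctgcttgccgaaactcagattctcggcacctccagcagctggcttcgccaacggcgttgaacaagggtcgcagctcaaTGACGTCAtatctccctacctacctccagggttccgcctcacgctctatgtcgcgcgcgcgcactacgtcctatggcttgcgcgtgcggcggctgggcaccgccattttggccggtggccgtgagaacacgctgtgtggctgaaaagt 
ABCB6, chr2:219218909-219219208, minus strand: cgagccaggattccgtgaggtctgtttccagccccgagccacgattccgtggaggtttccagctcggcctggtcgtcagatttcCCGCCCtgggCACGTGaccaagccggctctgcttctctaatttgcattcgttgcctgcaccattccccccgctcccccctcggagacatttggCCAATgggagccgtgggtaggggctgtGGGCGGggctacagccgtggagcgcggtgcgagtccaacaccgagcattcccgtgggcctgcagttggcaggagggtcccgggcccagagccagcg 
ABCC5, chr3:184017835-184018134, minus strand: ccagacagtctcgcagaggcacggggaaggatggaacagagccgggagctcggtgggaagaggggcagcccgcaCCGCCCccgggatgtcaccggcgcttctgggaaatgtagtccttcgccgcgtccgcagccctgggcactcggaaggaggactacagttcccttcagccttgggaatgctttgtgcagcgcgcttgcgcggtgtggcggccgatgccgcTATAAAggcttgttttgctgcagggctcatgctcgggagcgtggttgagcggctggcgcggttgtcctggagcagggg

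The ABCE1 window holds the 1 cAMP response element found among 53 windows of members (1.89%), against 1.85% of all 35116 promoter windows. An E-box was present in 17.0% of member windows and 7.26% of all windows, and ABCF1 and ABCB6 are printed with theirs. Some members have more than 1 window (ABCG2 has 5), and each window was counted separately. Of the 9 member windows with an E-box, those of ABCA1, ABCA9, ABCB6 and ABCF1 belong to members with exactly 1 window. The others belong to members with more than 1, so these shares are not shares of members. GC boxes stood in 47.2% of member windows and 45.0% of all windows, CCAAT boxes in 22.6% and 34.6%, and TATA motifs in 15.1% and 11.5%. A match is a description of letters and not of binding. Of the 45 members, 35 had a window, and 23 had exactly 1. Among those 23, CpG content had a higher median in expressed than in near-silent members, with overlapping ranges. The ratio of observed to expected CpG had a median of 0.926 (range 0.066 to 1.06) for the 17 members at 1 CPM or more in every condition, and 14 of them reached 0.6. It was 0.241 (range 0.0847 to 0.782) for the 6 members under 1 CPM in every condition, of which 1, ABCA1, reached 0.6. The median over all windows was 0.579. ABCC2, a canalicular exporter, had the lowest ratio of the expressed members, 0.066. These are descriptions, with no test.

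By a mean of at least 1 CPM, 26 members were expressed in the controls, 28 at 2.5 µM and 29 at 5 µM. At least 1 read was found for 38 members in the controls, 39 at 2.5 µM and 41 at 5 µM. Over the whole table, genes with at least 5 counts per library numbered 16690 to 17135 in controls and 18129 to 18977 at 5 µM. At 2.5 µM they numbered 17295 to 17531. With no low count filter, 8564 genes were higher and 7054 lower at 5 µM against control. More genes with low reads at 5 µM is thus not particular to the family. A total of 26 members passed 1 CPM in every condition and 16 stayed under it in every condition. The share of a library's raw counts that fell on ABC genes was 0.158% to 0.163% in controls. It was 0.180% to 0.182% with 2.5 µM drug and 0.187% to 0.195% with 5 µM drug. These raw ranges did not overlap. The TMM factors were not applied to this share. Such factors lay between 0.9405 and 0.9739 for controls, 0.9854 and 0.9966 for 2.5 µM, and 1.048 and 1.061 for 5 µM. A difference between the doses is therefore not claimed for scaled counts. ABCF1 and ABCF2, which have no membrane part, are included in the share. ABCF1 had 11195 reads in controls and 18575 at 5 µM, and ABCF2 had 8476 and 12503. The low count filter kept 30 members for the test. The 15 members left out were ABCA1, ABCA6, ABCA9, ABCA10, ABCB1, ABCB4, ABCB5, ABCB11, ABCC6, ABCC8, ABCC12, ABCD2, ABCG1, ABCG5 and ABCG8. The canalicular sterol exporter pair ABCG5 and ABCG8, and the lipid transporter gene ABCA9, had 0 counts in all 12 libraries, which allows at most 0.0191 CPM over all libraries (3 counts). The libraries carried no molecular identifiers, so such limits and the intervals of count ratios cover counting error only. Some members that lie next to each other in the genome differed in level. ABCC1 and ABCC6 are neighbours on chromosome 16, and ABCC1 averaged 115 ± 5.15 CPM in the controls while ABCC6 had 39 reads over the 4 control libraries. In the chromosome 17 row ABCA8, ABCA9, ABCA6, ABCA10 and ABCA5, the outer genes ABCA8 and ABCA5 were expressed and the 3 between them had 0 to 5 reads per condition. Other neighbours were alike in that both were low. ABCG5 and ABCG8 had 0 counts throughout, and the pairs ABCB4 and ABCB1, and ABCC12 and ABCC11, averaged under 1 CPM in every condition.

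Per kb of exon, the soluble translation factors led the family. ABCF1 averaged 50.2 ± 5.01 CPM per kb in the controls and ABCF2 41.2 ± 4.18, and their ranges over libraries overlapped. The exporter gene ABCC3 followed at 19.3 ± 1.48 and ABCE1 at 18.0 ± 2.27, and the ranges of these genes overlapped. ABCC1 had 15.2 ± 0.679 CPM per kb and overlapped ABCE1. At 5 µM ABCF1 had 78.3 ± 2.25, ABCF2 56.9 ± 2.75 and ABCC1 22.0 ± 1.05 CPM per kb, and ABCF1 and ABCF2 no longer overlapped. ABCE1 stood in rank 4 in the controls, 5 at 2.5 µM and 10 at 5 µM, where it had 8.81 ± 0.418 CPM per kb (SD, n = 4 throughout).

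**Figure D1:**
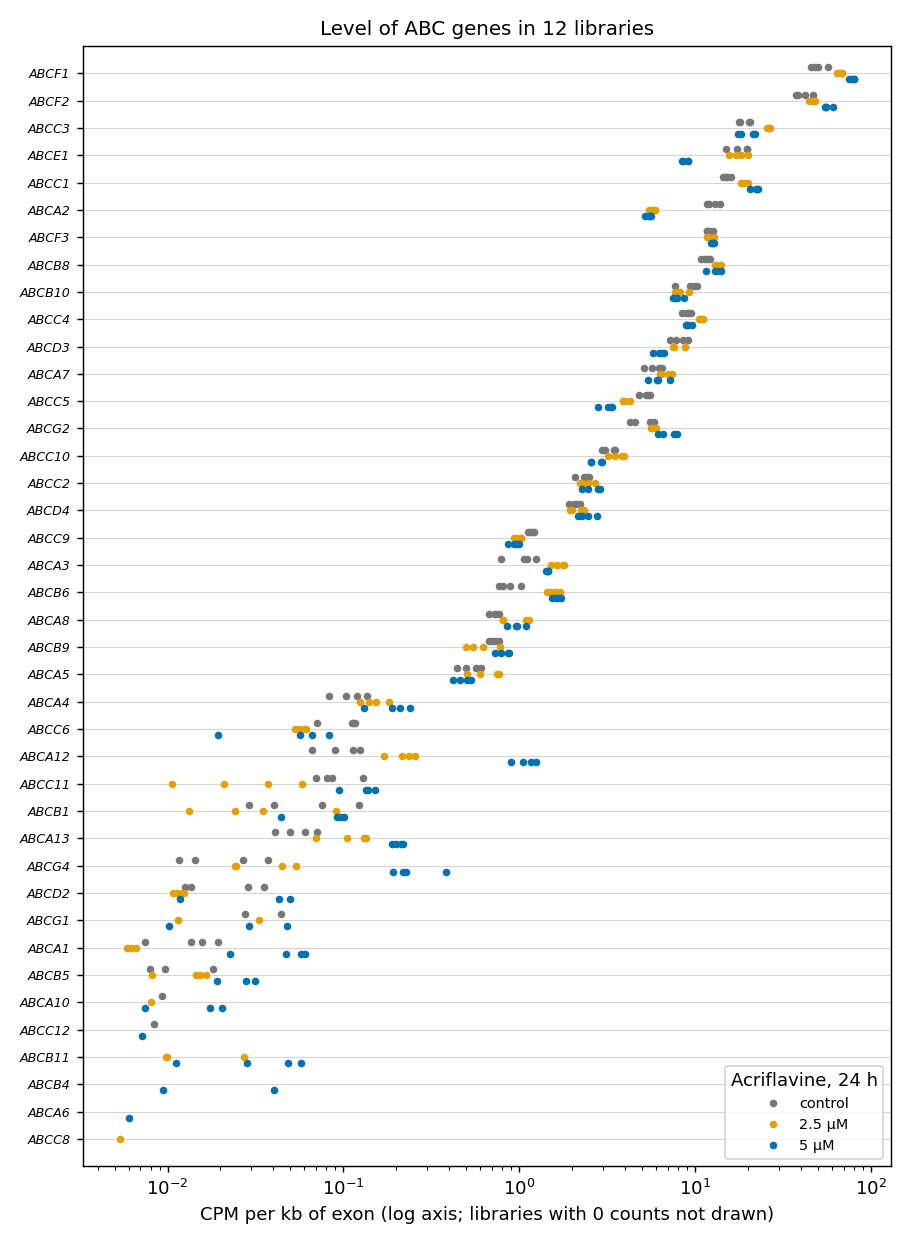
CPM per kb of exon on a log axis for ABC genes with any count, 1 point per library, ordered from high to low control level, with control, 2.5 µM and 5 µM in separate colours and libraries at 0 counts left out. ABCF1 and ABCF2 lead in every condition, and ABCA12 shows the step between 2.5 µM and 5 µM.

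At 5 µM against control, 22 of the 30 tested members changed, 73.3%, against 78.2% of all genes tested. Of these, 14 rose (background 38.7% higher) and 8 fell (background 39.4% lower). A change of at least 2-fold was called for 5 members (16.7%), against 26.4% of all genes, and the 4 and 4 values did not overlap for 18 members (60%), against 70.8%. At 2.5 µM against control, 18 members changed (60%), against 59.1% of all genes, of which 12 rose (background 30.7%) and 6 fell (background 28.5%). There, 3 members changed at least 2-fold (10%), against 10.1% of all genes, and 14 did not overlap (46.7%), against 50.5%. At 5 µM against 2.5 µM, 17 members changed (56.7%), against 68.4% of all genes, with 10 up (background 33.6%) and 7 down (background 34.8%). Of these members 4 differed at least 2-fold (13.3%), against 13.1% of all genes, and 16 tested members did not overlap (53.3%), against 62.1%. ABCG4 and ABCC11 are among these 4, and they passed the low count filter only or mainly through their 5 µM libraries. ABCG4 is also among the 14 that rose and the 5 that changed 2-fold at 5 µM against control. ABCC11 is among the 6 that fell and the 3 that changed 2-fold at 2.5 µM against control. Their places in these counts support nothing. In either direction together, the shares called were near or below the background in each comparison. The share that rose was above the background at 5 µM against control (46.7%) and at 2.5 µM against control (40%), and near it at 5 µM against 2.5 µM (33.3%). The share that fell was below the background in all 3 (26.7%, 20% and 23.3%). These shares are descriptions, with no test of the family. The median log2 fold change of the tested members was 0.17, 0.19 and 0.04 in these 3 comparisons, and that of all genes -0.01, 0.02 and -0.01. Both drug comparisons share the same control libraries. Scaling by library size alone moved the median of all genes at 5 µM against control to 0.12. It gave 20 members that rose and 5 that fell there. Of all 16839 genes tested, 7641 rose and 5464 fell with that scaling, against 6524 and 6641 with TMM.

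**Figure D2:**
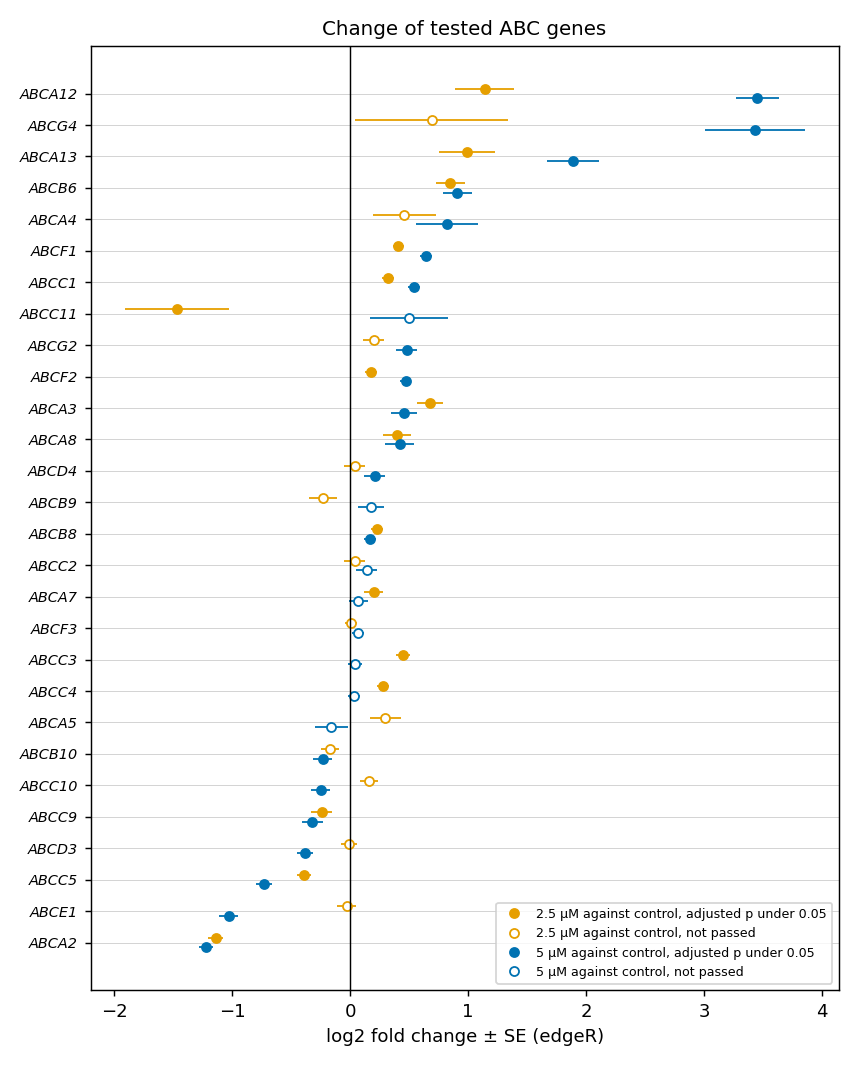
Log2 fold change ± SE from edgeR (x axis) for tested ABC genes (y axis), ordered by the change at 5 µM, with 2.5 µM and 5 µM each set against control. Filled points had an adjusted p under 0.05. ABCA12 lies at 3.45 and ABCA2 at -1.22 at 5 µM.

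The drug and organic anion exporters moved in different directions, with 8 tested members of 12 listed. At 5 µM 2 rose, 2 fell and 4 did not pass, and at 2.5 µM 3 rose, 2 fell and 3 did not pass. The background was 38.7% higher and 39.4% lower at 5 µM, and 30.7% higher and 28.5% lower at 2.5 µM. The falls at 2.5 µM were those of ABCC5 and ABCC11, of which ABCC11 is given below as a description only. ABCC1, an exporter of glutathione conjugates and of many anticancer drugs, had 114, 109, 122 and 115 CPM in the controls, 145, 138, 141 and 151 CPM at 2.5 µM and 170, 155, 173 and 169 CPM at 5 µM. The 3 conditions did not overlap and stood in the order of dose. The log2 fold change of ABCC1 was 0.54 ± 0.05 at 5 µM against control (edgeR adjusted p = 8.17e-12) and 0.32 ± 0.05 at 2.5 µM (edgeR adjusted p = 1e-06). ABCG2, which exports urate, porphyrins and drugs, had 21.6, 28.0, 23.1 and 29.4 CPM in the controls, 28.8, 29.2, 28.5 and 30.4 CPM at 2.5 µM and 33.2, 30.9, 39.7 and 38.4 CPM at 5 µM. All 5 µM libraries of ABCG2 lay above all others, while the 2.5 µM libraries lay within or just above the control range. ABCG2 rose by 0.48 ± 0.09 on the log2 scale at 5 µM (edgeR adjusted p = 9.99e-06), and its value at 2.5 µM was 0.20 ± 0.09 (edgeR adjusted p = 0.0599), which fell under 0.05 in 5 of 21 alternatives.

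ABCC5, an exporter of cyclic nucleotides and folates, had 61.4, 63.5, 59.7 and 54.9 CPM in the controls, 45.6, 44.3, 48.8 and 44.4 CPM at 2.5 µM and 36.3, 37.8, 38.3 and 32.1 CPM at 5 µM. The 3 conditions did not overlap, in the reverse order of dose. ABCC5 fell by 0.73 ± 0.07 at 5 µM (edgeR adjusted p = 4.58e-12) and fell by 0.39 ± 0.06 at 2.5 µM (edgeR adjusted p = 3.45e-06), both on the log2 scale. Its antisense RNA ABCC5-AS1 had 0 reads in the controls and 22 at 5 µM. ABCC10, another multidrug exporter of subfamily C, averaged 26.4 ± 2.23 CPM in the controls, 29.3 ± 2.77 CPM at 2.5 µM and 22.2 ± 1.74 CPM at 5 µM (SD, n = 4). The 5 µM libraries of ABCC10 lay below all others (5 µM against 2.5 µM, log2 fold change -0.41 ± 0.08, edgeR adjusted p = 4.55e-05). Its call at 5 µM against control (-0.25 ± 0.08, edgeR adjusted p = 6.99e-03) was lost with library size scaling (adjusted p = 0.198). ABCC10 shares 79 exon bases with DLK2 on the other strand, and DLK2 fell at 5 µM against control (-0.88).

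ABCC3 and ABCC4 were highest at the middle dose. ABCC3, a basolateral exporter of glucuronides and bile salts, had 198, 173, 196 and 172 CPM in the controls, 258, 254, 248 and 254 CPM at 2.5 µM and 212, 206, 176 and 170 CPM at 5 µM. Every 2.5 µM library lay above every other, and the 5 µM and control ranges overlapped. ABCC3 rose at 2.5 µM against control by 0.45 ± 0.06 (edgeR adjusted p = 4.21e-07) and was lower at 5 µM than at 2.5 µM (-0.41 ± 0.06, edgeR adjusted p = 1.27e-06). At 5 µM against control its value was 0.04 ± 0.06 (edgeR adjusted p = 0.541), and 0.18 with library size scaling (adjusted p = 0.0115). ABCC4, an exporter of cyclic nucleotides and bile salts, had 73.4, 81.6, 76.5 and 78.4 CPM in the controls, 91.5, 95.8, 95.8 and 92.5 CPM at 2.5 µM and 76.5, 82.8, 78.0 and 78.6 CPM at 5 µM. It followed the same order, with a log2 fold change of 0.28 ± 0.05 at 2.5 µM against control (edgeR adjusted p = 1.78e-05), -0.25 ± 0.05 at 5 µM against 2.5 µM (edgeR adjusted p = 5.21e-05) and 0.03 ± 0.05 at 5 µM against control (edgeR adjusted p = 0.636, with library size scaling 0.00499).

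ABCC2, the canalicular exporter of conjugated bilirubin, had 19.1, 19.6, 16.2 and 18.4 CPM in the controls, 19.2, 17.4, 21.1 and 17.9 CPM at 2.5 µM and 22.5, 21.9, 19.3 and 17.9 CPM at 5 µM. The 3 ranges overlapped, and the log2 fold change was 0.14 ± 0.09 at 5 µM against control (edgeR adjusted p = 0.158, with library size scaling 0.00849). ABCC11, which exports conjugates in apocrine glands, was under 1 CPM on average in every condition. It had 0.937, 0.586, 0.627 and 0.508 CPM in the controls, 0.151, 0.422, 0.0771 and 0.269 CPM at 2.5 µM and 0.980, 0.687, 1.1 and 1.0 CPM at 5 µM. The 2.5 µM libraries were the lowest and overlapped no other. ABCC11 passed the low count filter mainly through its 5 µM libraries and was dropped when only control and 2.5 µM were fitted. Its log2 fold change of -1.47 ± 0.44 at 2.5 µM against control is therefore a description. The place of ABCC11 among the exporters that fell there supports nothing. ABCC11 shares 293 exon bases with LONP2 on the other strand, which averaged 177 ± 3.11 CPM in the controls and 183 ± 1.52 CPM at 2.5 µM. The strand setting of the counting is not given in the sources used here, so reads of such pairs cannot be told apart.

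The gene of P-glycoprotein, ABCB1, the best known drug efflux pump, was near the limit of detection. It had 3, 6, 8 and 2 reads in the controls, 7, 2, 1 and 3 at 2.5 µM and 6, 3, 8 and 9 at 5 µM. The 3 ranges overlapped. The ratio of CPM was 1.29 at 5 µM against control (26 against 19 reads, 95% counting interval 0.686 to 2.46) and 0.612 at 2.5 µM against control (0.278 to 1.31). At 5 µM against 2.5 µM it was 2.11 (1.04 to 4.46), and edgeR with no low count filter gave an adjusted p of 0.102. Of the other 3 untested exporters, ABCC6 had 39 reads in the controls, 24 at 2.5 µM and 22 at 5 µM, a ratio of 0.531 at 5 µM against control (0.3 to 0.918). With no low count filter edgeR gave ABCC6 an adjusted p of 0.0564, and its near-identical pseudogenes make its counts uncertain. ABCB5 had 4, 7 and 9 reads and ABCC12 1, 0 and 1 in the same order of dose.

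The exporters of bile salts and of phosphatidylcholine into bile were almost silent. ABCB11, the bile salt export pump, had 0 reads in the 4 controls, 1, 3, 1 and 0 at 2.5 µM and 5, 1, 3 and 6 at 5 µM. All 5 µM libraries held reads, at 4.71 times the control floor of 3 counts over the group. This ratio leaves out the counting error of the 5 µM reads. With no low count filter, edgeR gave ABCB11 an adjusted p of 0.000231 at 5 µM against control. The same fit gave 0.0669 at 2.5 µM against control and 0.0862 at 5 µM against 2.5 µM. ABCB11 had failed the low count filter, so these values are descriptions only. ABCB4, the phosphatidylcholine exporter that lies next to ABCB1 on chromosome 7, had reads only at 5 µM, 0, 0, 1 and 5. Its level there was 1.88 times the same floor, again without counting error, and 5 of its 6 reads came from 1 library. The summed level of the 10 hepatocyte markers was also higher at 5 µM, 9.19 to 12.2 CPM against 0.879 to 1.69 CPM in the controls. Of these markers, TF averaged 5.52 CPM at 5 µM and had 0 counts in the controls, and FGB, APOB and HNF4A averaged 2.04, 1.42 and 1.22 CPM at 5 µM, against 0.343, 0.215 and 0.594 CPM in the controls. APOA1 averaged 0.189 CPM at 5 µM and 0.186 CPM in the controls, and ALB, AFP, SERPINA1, TTR and CYP3A4 had 0 to 2 reads in either condition. Summed endothelial markers had 7.13 to 8.69 CPM at 5 µM, against 0.169 to 0.537 CPM in the controls. This sum came mostly from TEK (6.24 CPM) and VWF (1.65 CPM), with KDR at 0.112 CPM and PECAM1 and CDH5 at 0 counts. Blood markers had 3.56 to 4.54 CPM at 5 µM, against 0.448 to 1.1 CPM in the controls. PTPRC (2.27 CPM) and CD14 (1.57 CPM) made up most of it, and CD3E and HBB had 0 counts at 5 µM. CD68 had 0.0928 CPM at 5 µM and 0.138 CPM in the controls. The part of all these markers in the ABCB11 reads was not tested.

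**Figure D3:**
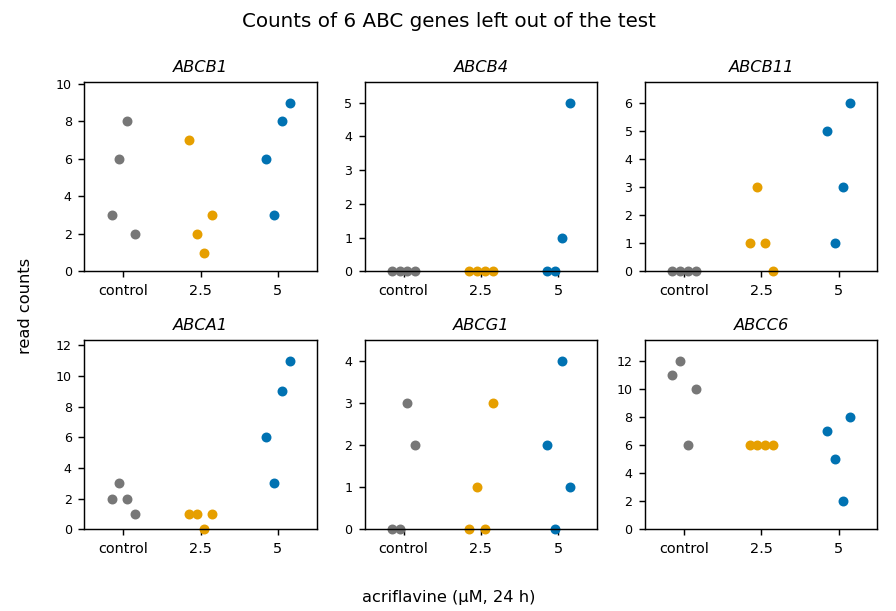
Read counts (y axis, linear) of ABCB1, ABCB4, ABCB11, ABCA1, ABCG1 and ABCC6 in each library by acriflavine dose (x axis), 1 point per library. ABCB11 has 0 reads in every control and 1 to 6 at 5 µM, while the ABCB1 ranges overlap.

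Among the 16 sterol and lipid transporters, 9 were tested, and 6 rose, 1 fell and 2 did not pass at 5 µM against control. The background there was 38.7% higher and 39.4% lower. These counts are descriptions, with no test of the group. ABCA12, which loads glucosylceramide into the lamellar granules of keratinocytes, had 0.625, 1.17, 1.07 and 0.846 CPM in the controls, 2.42, 2.04, 2.23 and 1.61 CPM at 2.5 µM and 11, 8.5, 11.7 and 9.94 CPM at 5 µM. No conditions overlapped, and the level rose at each dose. Its log2 fold change was 3.45 ± 0.18 at 5 µM against control (edgeR adjusted p = 4.91e-18), 1.14 ± 0.25 at 2.5 µM (edgeR adjusted p = 1.83e-04) and 2.31 ± 0.15 at 5 µM against 2.5 µM (edgeR adjusted p = 4.65e-15). ABCA13, a very large relative of ABCA12, had 0.781, 0.953, 1.16 and 1.35 CPM in the controls, 2.57, 1.34, 2.00 and 2.49 CPM at 2.5 µM and 4.19, 3.61, 3.81 and 4.06 CPM at 5 µM. Only 1 library at 2.5 µM lay within the control range, and all 5 µM libraries lay above the rest. ABCA13 rose by 1.89 ± 0.22 at 5 µM (edgeR adjusted p = 1.44e-09) and by 0.99 ± 0.24 at 2.5 µM (edgeR adjusted p = 7.56e-04), both log2.

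ABCA2, a transporter of endosomes and lysosomes linked to sterol and sphingolipid handling, had the largest fall of the tested members at 5 µM against control. It had 159, 138, 149 and 135 CPM in the controls, 68.0, 64.6, 62.9 and 68.2 CPM at 2.5 µM and 64.7, 62.6, 63.9 and 59.4 CPM at 5 µM. Every treated library lay below every control, and the 2 doses overlapped. The log2 fold change of ABCA2 was -1.22 ± 0.06 at 5 µM against control (edgeR adjusted p = 8.76e-20), -1.14 ± 0.06 at 2.5 µM against control (edgeR adjusted p = 2.57e-18) and -0.08 ± 0.06 at 5 µM against 2.5 µM (edgeR adjusted p = 0.244). ABCA3, which fills lamellar bodies with surfactant lipid in the lung, had 8.59, 8.36, 9.76 and 6.18 CPM in the controls, 14.1, 12.8, 11.9 and 13.8 CPM at 2.5 µM and 11.4, 11.4, 11.1 and 11.2 CPM at 5 µM. All treated libraries lay above all controls (5 µM, 0.46 ± 0.11, edgeR adjusted p = 4.73e-04; 2.5 µM, 0.68 ± 0.11, edgeR adjusted p = 2.53e-06).

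ABCA8, a lipid exporter gene, rose at both doses, by 0.42 ± 0.12 at 5 µM and 0.40 ± 0.12 at 2.5 µM on the log2 scale. ABCA4, the retinoid flippase of photoreceptors, averaged 1.64 CPM at 5 µM against 0.940 CPM in the controls, with overlapping libraries (0.82 ± 0.26, edgeR adjusted p = 5.04e-03). ABCA7, a phospholipid transporter, did not pass at 5 µM (0.07 ± 0.08) and rose at 2.5 µM (0.20 ± 0.08), a call lost in 5 of 21 alternatives. ABCA5 passed only at 5 µM against 2.5 µM (-0.46 ± 0.13, edgeR adjusted p = 3.15e-03). The sterol exporter gene ABCG4 had 3, 1, 1 and 2 reads in the controls, 2, 4, 2 and 5 at 2.5 µM and 16, 14, 33 and 22 at 5 µM. It passed the low count filter only through the 5 µM libraries, which lay above all others, so its log2 fold change of 3.43 ± 0.42 at 5 µM against control is given as a description and its place among the 6 sterol and lipid genes that rose supports nothing.

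ABCA1, which loads cholesterol onto apolipoprotein A-I, had 2, 3, 2 and 1 reads in the controls, 1, 1, 0 and 1 at 2.5 µM and 6, 3, 9 and 11 at 5 µM. The 5 µM range touched the control range at 3 reads. The ratio was 3.41 at 5 µM against control (95% counting interval 1.52 to 8.64) and 0.335 at 2.5 µM against control (0.0573 to 1.4). At 5 µM against 2.5 µM it was 10.2 (3.15 to 52.2). With no low count filter, edgeR gave a log2 fold change of 1.7 ± 0.57 at 5 µM against control (adjusted p = 0.00738). Against 2.5 µM the value at 5 µM was 3.12 ± 0.69 (edgeR adjusted p = 3.01e-05). At 2.5 µM against control it was -1.42 ± 0.91 (edgeR adjusted p = 0.263). ABCA1 had failed the low count filter, so these values are descriptions only. ABCG1, which exports cholesterol to HDL, had 5 reads in the controls, 4 at 2.5 µM and 7 at 5 µM, a ratio of 1.32 at 5 µM against control (0.360 to 5.27). ABCA6 and ABCA10 had 1 and 5 reads at 5 µM, and 0 and 1 in the controls.

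Transporters of mitochondria and lysosomes in subfamily B moved in both directions. ABCB6, a porphyrin transporter of the outer mitochondrial membrane and lysosomes, had 4.61, 4.25, 4.03 and 5.33 CPM in the controls, 7.57, 8.93, 7.86 and 8.33 CPM at 2.5 µM and 8.46, 8.67, 9.01 and 8.06 CPM at 5 µM. All treated libraries lay above all controls and the doses overlapped (5 µM, 0.91 ± 0.12, edgeR adjusted p = 4.12e-08; 2.5 µM, 0.85 ± 0.12, edgeR adjusted p = 3.74e-07). ABCB10, a mitochondrial transporter linked to haem synthesis, fell at 5 µM (-0.23 ± 0.08, edgeR adjusted p = 7.57e-03), which library size scaling did not keep (adjusted p = 0.276). ABCB8, of the inner mitochondrial membrane, rose at both doses (0.17 ± 0.05 at 5 µM and 0.23 ± 0.05 at 2.5 µM). Without replicate 1 of 5 µM, its edgeR adjusted p at 5 µM was 0.0580. ABCB9, a lysosomal peptide transporter, passed only at 5 µM against 2.5 µM (0.41 ± 0.12) and shares exon bases with OGFOD2 on the other strand.

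ABCC9, the regulatory subunit of ATP-sensitive potassium channels in muscle, averaged 13.6 CPM in the controls, 11.5 CPM at 2.5 µM and 10.9 CPM at 5 µM, and both treated groups lay below all controls. Its log2 fold change was -0.32 ± 0.09 at 5 µM (edgeR adjusted p = 1.97e-03) and -0.24 ± 0.09 at 2.5 µM (edgeR adjusted p = 0.0220), the first lost with library size scaling (adjusted p = 0.0604) and the other in 5 of 21 alternatives. ABCC8, the pancreatic subunit, had 1 read in all. The pore gene KCNJ8 also fell at 5 µM against control, by 0.44 ± 0.17 on the log2 scale (edgeR adjusted p = 0.0192), with overlapping libraries. This call was lost in 4 of 21 alternatives, with an adjusted p of 0.133 without control replicate 4, 0.0994 with library size scaling and 0.0587 with DESeq2. KCNJ11 was not tested.

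ABCD3, which imports branched-chain and bile acid intermediates into peroxisomes, had 64.9, 69.3, 55.0 and 59.1 CPM in the controls, 56.8, 66.3, 66.5 and 57.4 CPM at 2.5 µM and 47.1, 49.5, 43.8 and 50.7 CPM at 5 µM. The 5 µM libraries lay below all others (-0.38 ± 0.07 against control, edgeR adjusted p = 1.35e-05). The lysosomal cobalamin transporter gene ABCD4 passed at 5 µM (0.21 ± 0.09, edgeR adjusted p = 0.0339), with overlapping libraries, and lost the call in 7 of 21 alternatives. Without control replicate 2, 3 or 4, or 5 µM replicate 1 or 2, its adjusted p ran from 0.0534 to 0.189. ABCD2 had 7 reads in the controls, 4 at 2.5 µM and 9 at 5 µM.

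The soluble members held both a strong fall and the highest levels. ABCE1, an iron-sulfur ATPase that splits ribosomes after termination, had 124, 124, 94.4 and 108 CPM in the controls, 107, 114, 125 and 97.9 CPM at 2.5 µM and 53.4, 57.5, 52.5 and 57.4 CPM at 5 µM. The controls and the 2.5 µM libraries overlapped fully, and every 5 µM library lay far below both. The log2 fold change of ABCE1 was -1.03 ± 0.08 at 5 µM against control (edgeR adjusted p = 8.01e-10), -0.03 ± 0.08 at 2.5 µM (edgeR adjusted p = 0.798) and -1.01 ± 0.08 at 5 µM against 2.5 µM (edgeR adjusted p = 2.15e-09). ABCE1 shares 276 exon bases with OTUD4 and 469 with ANAPC10, both on the other strand. OTUD4 averaged 22.6 ± 3.38 CPM at 5 µM against 37.2 ± 2.27 CPM in the controls, and ANAPC10 7.50 ± 0.762 CPM against 9.28 ± 1.32 CPM (SD, n = 4).

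ABCF1, which binds the initiation factor eIF2 and ribosomes, had 206, 217, 228 and 258 CPM in the controls, 309, 291, 309 and 297 CPM at 2.5 µM and 362, 361, 340 and 354 CPM at 5 µM. The 3 conditions did not overlap and rose with dose (5 µM, 0.64 ± 0.05, edgeR adjusted p = 2.75e-13; 2.5 µM, 0.41 ± 0.05, edgeR adjusted p = 2.65e-08). ABCF2, whose yeast relative works in ribosome assembly, had 157, 161, 176 and 195 CPM in the controls, 197, 185, 196 and 202 CPM at 2.5 µM and 233, 230, 255 and 233 CPM at 5 µM. All 5 µM libraries lay above all others, and ABCF2 rose by 0.47 ± 0.05 at 5 µM (edgeR adjusted p = 2.99e-09) and by 0.18 ± 0.05 at 2.5 µM (edgeR adjusted p = 5.38e-03). Its processed pseudogene ABCF2P1 averaged 44.0 ± 2.38 CPM at 5 µM against 33.4 ± 3.58 CPM in the controls, and reads of the pair may be divided between them. ABCF3, the remaining F member, did not pass at either dose (0.07 ± 0.05 at 5 µM, edgeR adjusted p = 0.244, and 0.0464 with upper quartile or 0.000769 with library size scaling).

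**Figure D4:**
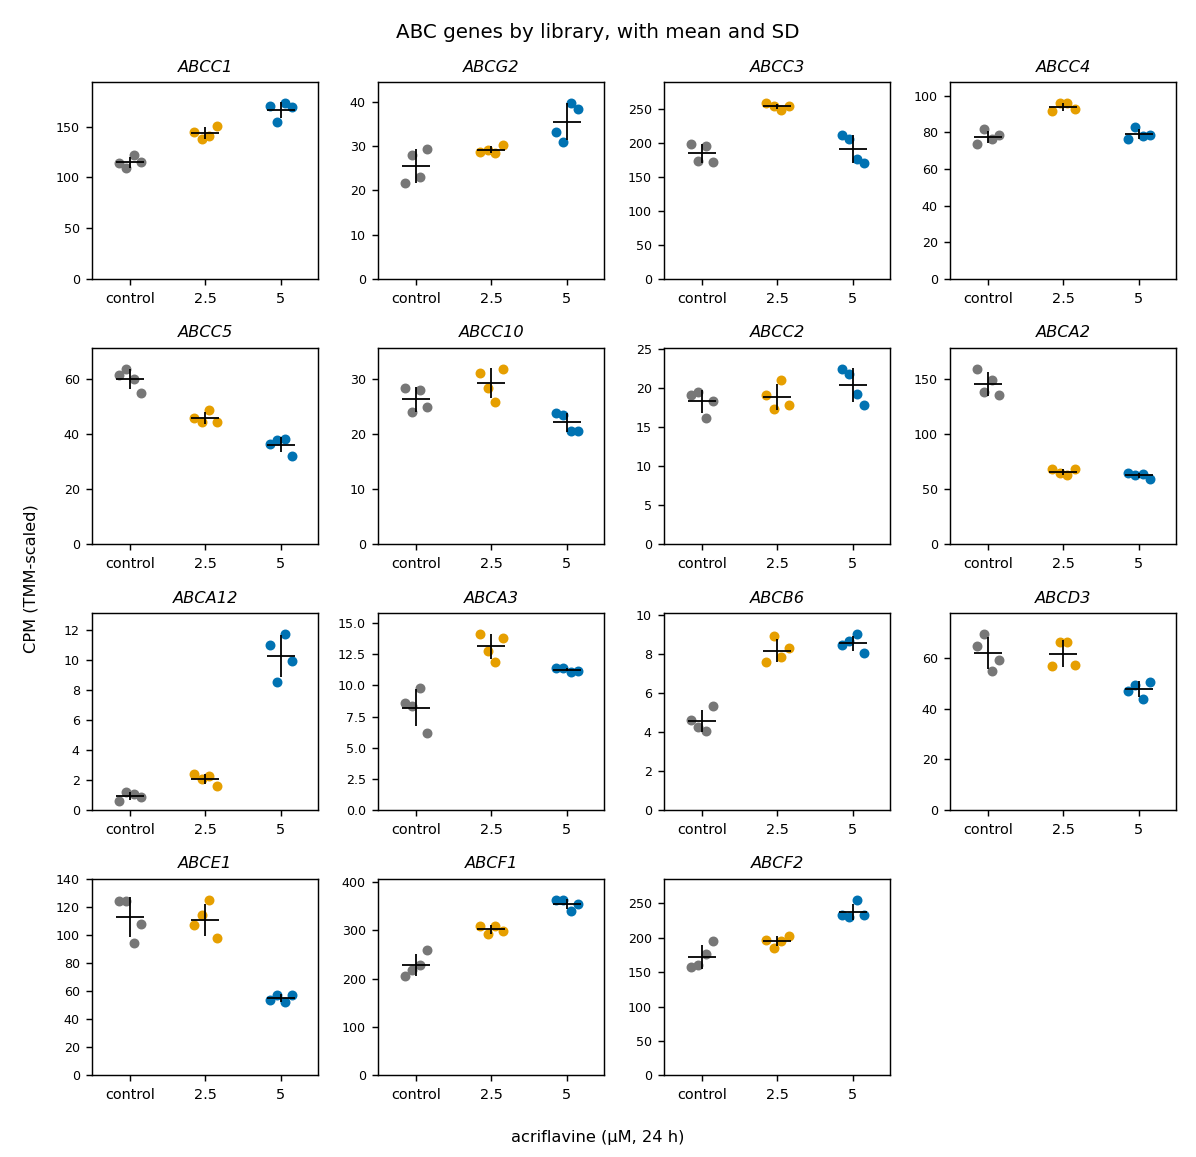
CPM (y axes from 0, scaled per gene) of 15 ABC genes in each library by acriflavine dose (x axis), with points for libraries, horizontal bars for means and vertical bars for SD (n = 4). ABCC3 and ABCC4 peak at 2.5 µM, ABCC1 and ABCF1 step up with dose, and ABCE1 falls at 5 µM only, to 52.5 to 57.5 CPM.

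ABC proteins with other symbols lie outside the rule. TAP1, a subunit of the peptide transporter for MHC class I, had 94.8, 88.1, 96.0 and 87.7 CPM at 5 µM, against 40.9, 40.0, 50.0 and 44.2 CPM in the controls (1.07 ± 0.06, edgeR adjusted p = 6.3e-17). Its partner TAP2 did not pass (-0.08 ± 0.07, edgeR adjusted p = 0.311). CFTR, the chloride channel of the family, had 47, 44, 58 and 56 reads at 5 µM, against 0, 1, 0 and 1 in the controls, a ratio of 96.5 (95% counting interval 26.4 to 802). At 2.5 µM CFTR had 0, 9, 4 and 7 reads. The low count filter dropped CFTR when only control and 2.5 µM were fitted. Its ratio is therefore a description, and the interval leaves out the spread between libraries. CFTR is also on the cholangiocyte marker list, and its other 4 genes moved in both directions at 5 µM against control. The keratin genes KRT7 (-1.19 ± 0.06) and KRT19 (-1.99 ± 0.06) fell, and the transcription factor gene SOX9 (3.17 ± 0.20) and the adhesion gene EPCAM (0.73 ± 0.15) rose. Their part in the CFTR reads was not tested.

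Lists of genes that work with ABC proteins were described at 5 µM against control beside the background of 38.7% higher and 39.4% lower. Of 24 SLC carriers of drugs and bile salts, 10 were tested, 2 rose and 8 fell (median log2 fold change -0.74). The carnitine carrier gene SLC22A5 fell to 39.4 ± 1.08 CPM at 5 µM, against 109 ± 2.11 CPM in the controls, and the nucleoside carriers SLC29A1 and SLC29A2 fell by 1.28 ± 0.06 and 1.21 ± 0.08 on the log2 scale. Of 16 tested regulators of ABC genes, 4 rose, 7 fell and 5 did not pass (median -0.09), and 7 rose with no low count filter. ATF4, the stress response factor, fell by 2.37 ± 0.05, SREBF2, the sterol regulator, by 0.78 ± 0.04, and SREBF1 by 0.64 ± 0.06, each on the log2 scale. Of 8 tested LXR targets outside the family, 2 rose and 2 fell (median 0.10), and 5 rose with library size scaling. LPCAT3 (1.27 ± 0.05) and APOE (2.58 ± 0.25) rose, and SCD, a fatty acid desaturase, fell by 1.31 ± 0.05.

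Iron-sulfur and haem synthesis genes showed 9 up and 10 down of 23 (median -0.05), with falls of NUBP2 (-1.50 ± 0.07), NFS1 (-1.27 ± 0.06), the cysteine desulfurase, and HSPA9 (-1.19 ± 0.04), a mitochondrial chaperone. MHC class I loading genes showed 5 up and 2 down of 8 tested (median 0.43), with rises of PSMB9 (2.4 ± 0.26) and PSMB10 (2.38 ± 0.14), immunoproteasome subunits, and of the peptidase ERAP1 (1.43 ± 0.06). Peroxisomal genes showed 13 up and 7 down of 22 (median 0.24), with PEX6, an import ATPase, at 2.92 ± 0.07, the thiolase ACAA1 at 1.73 ± 0.06 and HSD17B4, of beta-oxidation, at -0.62 ± 0.05. Ribosome rescue and recycling genes, the group of ABCE1, showed 1 up and 8 down of 13 (median -0.27), or 3 up and 6 down with library size scaling. The falls included NEMF (-1.54 ± 0.13) and ZNF598 (-0.98 ± 0.06) of ribosome quality control and the initiation factor MCTS1 (-0.52 ± 0.05). The genes named are the 3 of smallest p at 5 µM against control in each list, so they do not stand for their list. Those named in this paragraph and the one before it had an edgeR adjusted p under 0.05, while TAP2, named further above, did not.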

How the data were processed

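RNA was measured in 12 libraries, 4 per condition. The deposited table holds raw counts, which are whole numbers, for each Ensembl gene. Per the labels' protocols, poly-A RNA was made into strand-marked libraries. Per the submitters' processing notes, GRCh37 was the build, and the tools named, without roles, were bedtools 2.17.0, STAR 2.4.1d, edgeR 3.8.6, Cufflinks 2.1.1, Bowtie2 2.2.4, featureCounts 1.4.6, SAMtools 1.1 and cutadapt 1.7.1. The sources used here do not give the counting's strand setting or its treatment of multiply mapped reads, so counts of genes with near-identical copies are uncertain.

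Symbols, classes and exon lengths came from GENCODE 29, which found a symbol for 51989 of 63152 genes, holding 99.3% of counts. It annotates another build, so no gene coordinates are given. Library totals ran from 10733567 to 15116842, and 0 of 66 library pairs held identical values. Genes kept by filterByExpr, 16839, entered the quasi-likelihood test of edgeR 4.0.16 under R 4.3.3 (TMM scaling, glmQLFit robust, glmQLFTest, 3 groups in 1 fit, 9 residual degrees of freedom), with Benjamini-Hochberg adjustment across all of them, with 0.05 as threshold. The SE is the absolute log2 fold change divided by the square root of F. The steps were tested on simulated data. Alternatives were DESeq2 1.42.0, other scalings and filters, fits of only the groups compared, a replicate block, a stricter threshold and leaving out each library. CPM per kb uses union exon length. Counting intervals are exact 95% binomial intervals on summed reads.

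The named genes were 11 efflux, sterol and bile members whatever their values, then members past an adjusted p of 0.05 whose groups did not overlap and whose average log2 CPM was 1 or more (the 6 largest rises and falls at 5 µM, and the 3 and 3 of the other comparisons), and the 3 genes of smallest p in each of 9 background lists. Other members are named to account for the family. Values of some members are not reported here, though the counts over the family include them. The members, lists and tests were chosen with earlier results of these data known.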

Additional observations from a re-analysis of the deposited data

Results flagged for a closer look

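In 4 of 174 sets of 4 libraries examined, 1 library stood further from the others than Dixon's limit at 95% allows, and chance gives about 1 in 20. ABCB1 had 0.258 CPM in 5 µM replicate 2, and the other 3 libraries had 0.535 to 0.586 CPM. ABCA1 had 0 CPM in 2.5 µM replicate 3, and the others had 0.0672 to 0.0757 CPM, which is 1 read each. ABCF2 had 255 CPM in 5 µM replicate 3, and the others had 230 to 233 CPM. SREBF2 had 216 CPM in control replicate 3, and the others had 205 to 206 CPM. The cause was not tested.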

How the results depend on the processing

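No called value changed direction under the alternatives run. Among the counts of members, 1 moved by more than 1.5 times. With library size scaling, 5 members fell at 5 µM against control, against 8 with TMM. Of all genes tested, 5464 fell there with that scaling, against 6641 with TMM. The cause was not tested. Leaving out each of the 12 libraries gave 21 to 23 members changed at 5 µM against control (12 to 14 rose, 8 to 9 fell), 17 to 21 at 2.5 µM against control (11 to 13 rose, 5 to 8 fell) and 17 to 19 at 5 µM against 2.5 µM (10 to 11 rose, 7 to 9 fell). For all genes, the same fits called 12856 to 13457, 9382 to 9955 and 10928 to 11868 of 16997 to 17194 tested. DESeq2 gave 22, 18 and 18 changed members in these 3 comparisons, and 12767, 9382 and 10962 of all 16839 genes. With the replicate number as a block, 22, 19 and 17 members changed, and 13091, 9828 and 11423 of all genes. The numbers do not pair the libraries: correlations of same-numbered libraries' deviations ran from -0.13 to 0.0745, and 0 libraries matched their own number best. Expressed members numbered 30, 28 and 31 at a minimum of 0.5 CPM and 24, 25 and 26 at 5 CPM, for control, 2.5 µM and 5 µM. Over the single-gene values, 3382 stayed on their side of the threshold, 48 gained a call and 28 lost one. Depth limits ABCB1, ABCA1, ABCB4, ABCB11 and the other untested members, which rest on at most 39 reads per condition.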
